A study of Mus musculus with 12 samples.

Results

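The combined loss of Bak1 and Bax in blood-forming progenitors was measured on 6 of the 12 arrays of the series, 3 of Bak/Bax DKO cells (double knockout of both genes) and 3 of wild-type cells hybridized beside them as experiment 2, called WT here. Each array held total RNA from bone marrow cells of femur and tibia that carried Kit and CD45.2 and lacked lineage markers, a gate that enriches for haematopoietic stem and progenitor cells. The cells came from C57BL/6 bone marrow chimeras, mice whose blood system was rebuilt 12 to 16 weeks earlier from transplanted fetal liver cells of embryonic day 13.5. Both groups shared this strain, gate and transplant. The sources used here do not give the host strain, its conditioning or the design of the deleted alleles. The 3 samples of a group are described as independent, but the number of animals behind each is not given, so the p-values below measure the spread between these samples. The remaining 6 arrays, of Casp9 KO cells and their own WT cells (experiment 1), entered the fit only as further measures of spread. All genes detected in experiment 2 were compared, 11026 of the 24505 gene symbols on the array. A gene counted as detected where its detection score, which runs up to 1 for a probe above background, passed 0.95 on at least 3 of the 6 arrays.

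Bak1 and Bax encode the effector proteins of the mitochondrial pathway of apoptosis. Once activated by BH3-only proteins they form pores in the outer mitochondrial membrane, which releases cytochrome c, and cytochrome c assembles with Apaf1 the platform on which caspase-9 is activated. Anti-apoptotic relatives such as Bcl2, Bcl2l1 and Mcl1 hold both effectors in check. When the pores form while caspases are blocked, mitochondrial DNA can reach the cytosol and start the type I interferon response.

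Levels are given as log2 normalized intensity. Bak/Bax DKO replicate 2 stood apart. Its mean raw intensity was 235, against 321 to 460 on the other arrays of experiment 2, and its correlation with any other array did not exceed 0.869. Of 7170 bright probes, 976 (13.6%) lay more than 3 log2 units below the WT mean on that array, against at most 13 (0.181%) on any of the other 11 arrays. Counts of calls in a list or region are therefore also given without it where they differ. WT replicate 3 differed in sex-linked genes. Eif2s3y, a Y-linked gene, read 9.90 to 10.14 on the Bak/Bax DKO arrays, and 9.74, 9.93 and 4.38 on WT replicates 1, 2 and 3. The 4 probes whose transcript RefSeq names Xist lay between 4.23 and 4.62 on the Bak/Bax DKO arrays and WT replicates 1 and 2, and between 9.05 and 9.998 on WT replicate 3. The markers named for the sorted population, Kit, Cd34, Gata2, Myb and Ptprc, were above background on all 6 arrays.

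The deletion was visible in both genes. The Bak1 probe (chr17:27157109-27157158 in the files, of a build that no source used here states) read 4.600, 4.52 and 4.76 on the Bak/Bax DKO arrays, and 6.28, 6.59 and 6.74 on the WT arrays. It was not well above background on any Bak/Bax DKO array and was at least 3.09-fold lower there (limma adjusted p = 1.29e-04). The Bax probe (chr7:52717276-52717325) read 7.72, 8.02 and 7.91 in Bak/Bax DKO cells, against 9.34, 9.998 and 9.76 in WT cells. Bax was lower by a log2 change of -1.82 ± 0.17 (SE, limma adjusted p = 4.04e-04), yet stayed above background on every Bak/Bax DKO array. Neither gene's groups overlapped. The sources used here do not say whether either probe lies inside the deleted exons.

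With all 6 arrays, 265 genes (2.40% of those tested) passed a limma adjusted p of 0.05. Of these, 208 (1.89%) were higher and 57 (0.517%) lower in Bak/Bax DKO cells. Without Bak/Bax DKO replicate 2 the count was 502 (4.55%), with 284 (2.58%) higher and 218 (1.98%) lower. Of the 265 genes, 264 were called again in the same direction without that array, and 238 were called only without it, 77 higher and 161 lower. The median log2 change over all genes tested was 0.12 with all arrays and 0.01 without Bak/Bax DKO replicate 2, and changes below are read against those values. Counts also depended on which arrays gave the spread: a fit of experiment 2 alone called 17 genes, or 346 without Bak/Bax DKO replicate 2. That second fit was added after the data were seen. Over the 12 arrays 1901 genes had unadjusted p-values below 0.05. Leaving out WT replicate 1, 2 or 3 lowered the count to 121, 107 and 95, while leaving out Bak/Bax DKO replicate 1 raised it to 410. A core of 82 genes (59 higher, 23 lower) was called whichever of the 6 arrays was dropped. Each of those fits kept the arrays of experiment 1 for the spread. The fit of experiment 2 alone called only 7 genes higher and 10 lower, so most of this core was not called there. The values of Bak/Bax DKO and WT arrays did not overlap for 2118 genes (19.2%), with 14.0% of all genes higher and 5.19% lower on every Bak/Bax DKO array. Without Bak/Bax DKO replicate 2 this held for 3470 genes (31.5%), 17% higher and 14.4% lower.

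**Figure D1:**
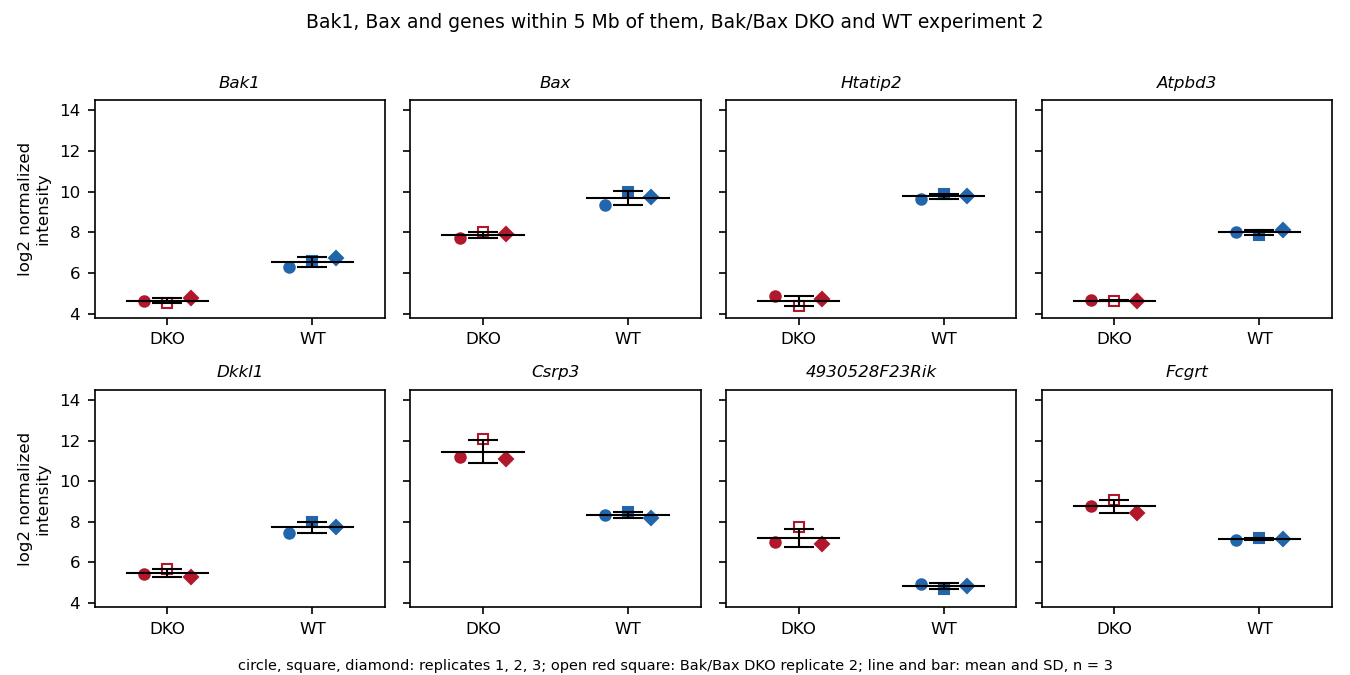
Log2 normalized intensity (y axis) of Bak1, Bax and 6 genes within 5 Mb of them on each Bak/Bax DKO array (left) and each WT array of experiment 2 (right), with the mean and SD of 3 arrays. The groups do not overlap in any panel, and Htatip2 and Atpbd3 lie near 4.6 in Bak/Bax DKO cells, against 9.8 and 8.0 in WT cells.

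Many of the largest falls lay beside the deleted genes. Htatip2, a short-chain dehydrogenase relative that binds importins, has its probe 4.31 Mb from that of Bax. It read 4.85, 4.37 and 4.70 in Bak/Bax DKO cells, against 9.66, 9.88 and 9.78 in WT cells, a log2 change of -5.13 ± 0.16 (SE, limma adjusted p = 5.20e-08). On the 6 arrays of experiment 1 it lay between 9.43 and 9.83, with the WT values. Atpbd3 (Ctu1), which thiolates transfer RNA wobble uridines, read 4.66, 4.598 and 4.64, against 7.99, 7.88 and 8.10 in WT cells. It was below background on all 3 Bak/Bax DKO arrays and at least 8.49-fold lower (limma adjusted p = 7.75e-07). The zinc finger gene A630033E08Rik (Zfp945), on chromosome 17, was at least 6.72-fold lower in the same way. Dkkl1, a Dickkopf-like secreted protein gene 0.25 Mb from Bax, fell by 2.26, with all 3 Bak/Bax DKO arrays at or below 5.68 and all 3 WT arrays at or above 7.47. Rab44, a Rab family GTPase gene, had a log2 change of -2.19 with all arrays and -1.73 without Bak/Bax DKO replicate 2.

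Rises were found in the same stretches. Csrp3, a muscle LIM protein gene 3.37 Mb from Bax, read 11.17, 12.10 and 11.11 in Bak/Bax DKO cells, against 8.32, 8.51 and 8.20 in WT cells, a log2 change of 3.11 ± 0.28 (SE, limma adjusted p = 3.55e-04). Of its other probes, 1 showed a change of 2.82 and another one of -0.21, or 1.69 without Bak/Bax DKO replicate 2. The 4930528F23Rik gene (Meiob, a meiotic recombination factor), 2.18 Mb from Bak1, rose by 2.37. Fcgrt, the neonatal Fc receptor that recycles immunoglobulin G, rose by 1.60, Nosip by 1.18 and the circadian transcription factor gene Dbp by 0.91. Probes of 1 gene could point opposite ways here. The most intense probe of Hps5, which encodes a subunit of a lysosome biogenesis complex, rose by 1.47 and another detected probe showed -2.61. For Ndufb10, a subunit of respiratory complex I, the same pair was 1.05 and -4.20, and the call on the first was lost without WT replicate 2 (limma adjusted p = 0.0657) or WT replicate 1. Gfer, a mitochondrial sulfhydryl oxidase gene 2.33 Mb from Bak1, read 11.34, 4.29 and 11.30 in Bak/Bax DKO cells, against 10.01, 10.12 and 10.05 in WT cells. Its log2 change was -1.08 with all arrays (limma adjusted p = 0.693) and 1.26 without Bak/Bax DKO replicate 2 (limma adjusted p = 5.73e-05).

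Within 5 Mb of either gene, 34 of 239 measured genes (14.2%) were called, 15 higher and 19 lower. Among the 10639 genes farther than 10 Mb away or on other chromosomes, 218 (2.05%) were called, 185 higher and 33 lower. By distance, the called share was 12.4% within 2 Mb, 17% at 2 to 5 Mb, 7.53% at 5 to 10 Mb and 3.39% at 10 to 20 Mb, or 17.2%, 33%, 13.7% and 5.08% without Bak/Bax DKO replicate 2. Without Bak/Bax DKO replicate 2, 56 genes (23.4%) within 5 Mb were called, against 424 (3.99%) of the distant ones. The region around Bax held 10 higher and 11 lower of 89 measured genes, that around Bak1 5 higher and 8 lower of 150. The same counts without Bak/Bax DKO replicate 2 were 12 higher and 13 lower around Bax, and 12 higher and 19 lower around Bak1. Of the 55 genes called lower other than Bak1 and Bax, 22 (40.0%) lay within 10 Mb of the pair, where 3.49% of the genes tested lie. Among the 10 largest of those falls it was 7. Of the 208 genes called higher, 23 (11.1%) lay there. Without Bak/Bax DKO replicate 2, 40 of the falls lay within 10 Mb and 176 farther away, against 36 and 248 of the rises. These windows of distance were chosen after the values were seen.

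**Figure D2:**
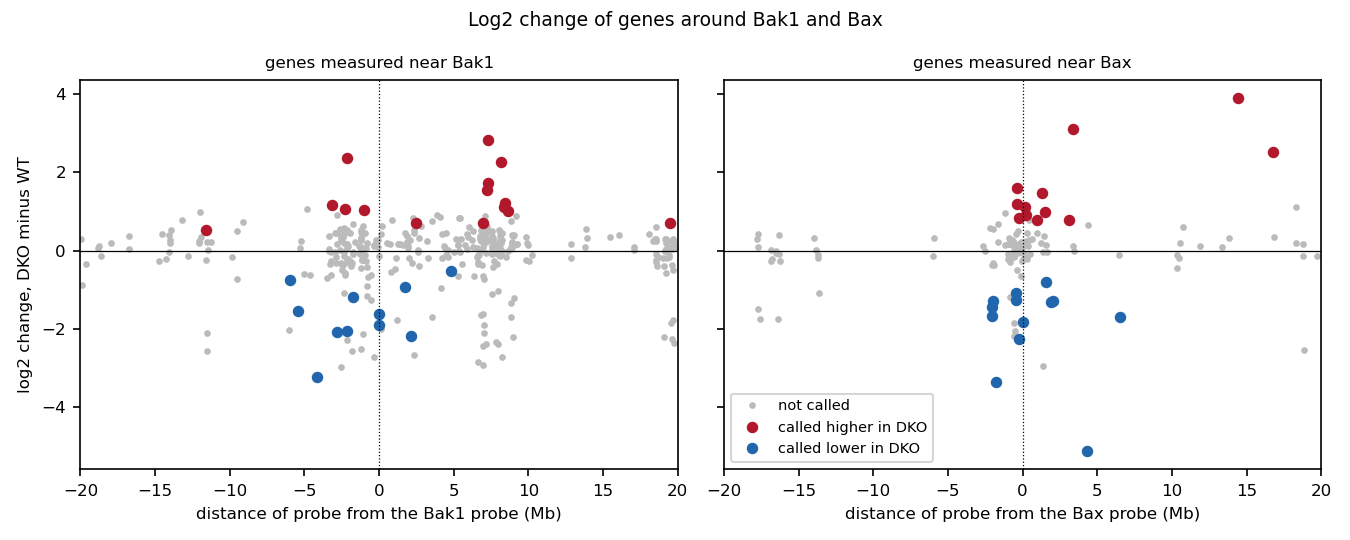
Log2 change of Bak/Bax DKO over WT (y axis) for every measured gene within 20 Mb of Bak1 (left) and Bax (right), by the distance of its probe from the probe of the deleted gene in Mb (x axis). Red points are genes called higher in Bak/Bax DKO cells, blue points genes called lower and grey points genes not called. Called falls gather within 5 Mb, with Htatip2 at -5.13 as the lowest point.

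Away from those regions, genes of stem cells and multipotent progenitors were higher in Bak/Bax DKO cells. Of 34 measured members of that list, 14 rose and none fell, with and without Bak/Bax DKO replicate 2. Over all genes tested, 1.89% were called higher and 0.517% lower, or 2.58% and 1.98% without that array. List counts below are read against these shares. In sorted cells of mixed stages, a larger share of a cell type and more RNA per cell cannot be told apart. The list's median log2 change was 0.84, against 0.12 over all genes, or 0.72 against 0.01 without Bak/Bax DKO replicate 2. Gata2, a transcription factor needed for stem cell maintenance, read 11.63, 12.05 and 11.75 in Bak/Bax DKO cells, against 10.97, 10.75 and 10.77 in WT cells, a change of 0.98 ± 0.15 (SE, limma adjusted p = 0.00760). No Bak/Bax DKO array overlapped a WT array. Esam, an adhesion molecule used to mark stem cells, rose by 1.55. The calls on Gata2 and Esam held whichever array was dropped, and without Bak/Bax DKO replicate 2 their changes were 0.86 and 1.26.

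Other members of the list rose with less stability. Ly6a, which encodes the stem cell antigen Sca-1 and is also an interferon-inducible gene, read 9.51, 11.08 and 10.01 in Bak/Bax DKO cells, against 7.33, 8.42 and 7.84 in WT cells. Its change of 2.34 ± 0.40 (SE, limma adjusted p = 0.0132) was no longer called without WT replicate 3 (limma adjusted p = 0.0609) or WT replicate 1. Kit, the receptor used for sorting, rose by 0.70 on its most intense probe, while another probe above background on all 6 arrays had a change of 0.0010, or -0.36 without Bak/Bax DKO replicate 2. Meis1 rose by 0.96 and the cell cycle inhibitor gene Cdkn1c by 1.11. The highest limma adjusted p with 1 array left out was 0.181 for Kit (without WT replicate 2), and 0.157 for Meis1 and 0.0853 for Cdkn1c (both without WT replicate 3). Kit was also no longer called without WT replicate 3 or Bak/Bax DKO replicate 3, Meis1 without WT replicate 1 or 2, and Cdkn1c without WT replicate 1. Further members did not pass: Cd34 had a change of 0.45 (limma adjusted p = 0.324), and Procr, the endothelial protein C receptor of long-term stem cells, one of -0.13 (limma adjusted p = 0.799).

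Platelet-lineage genes moved the same way. Of 30 measured members of the megakaryocyte and platelet list, 8 rose and none fell with all arrays, and 12 rose and 1 fell without Bak/Bax DKO replicate 2. Of the called genes 3, Vwf among them, stand in both lists. Mmrn1, a platelet storage protein, read 7.48, 7.38 and 7.91 in Bak/Bax DKO cells, against 6.09, 5.31 and 5.93 in WT cells, a log2 change of 1.81 ± 0.24 (SE, limma adjusted p = 0.00441). Treml1, a receptor of platelet alpha granules, rose by 1.62, and both calls held whichever array was dropped. F2rl2, a thrombin receptor, rose by 0.94 (limma adjusted p = 0.0520 without WT replicate 2). Vwf, the platelet and endothelial adhesion protein, rose by 1.10 (limma adjusted p = 0.0940 without WT replicate 2, and not called without WT replicate 1 or 3 either). Itga2b, the integrin of megakaryocytes and early progenitors, read 9.58, 6.91 and 9.92 in Bak/Bax DKO cells, against 8.46, 8.54 and 8.74 in WT cells. Bak/Bax DKO replicate 2 was the lowest of the 6 arrays and the other 2 were the highest, so that the change was 0.22 with all arrays (limma adjusted p = 0.856) and 1.17 without it (limma adjusted p = 0.00297). Another probe of the gene showed 1.37 and 1.23. F13a1, the member that fell without that array, encodes a coagulation factor chain that monocytes express too.

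**Figure D3:**
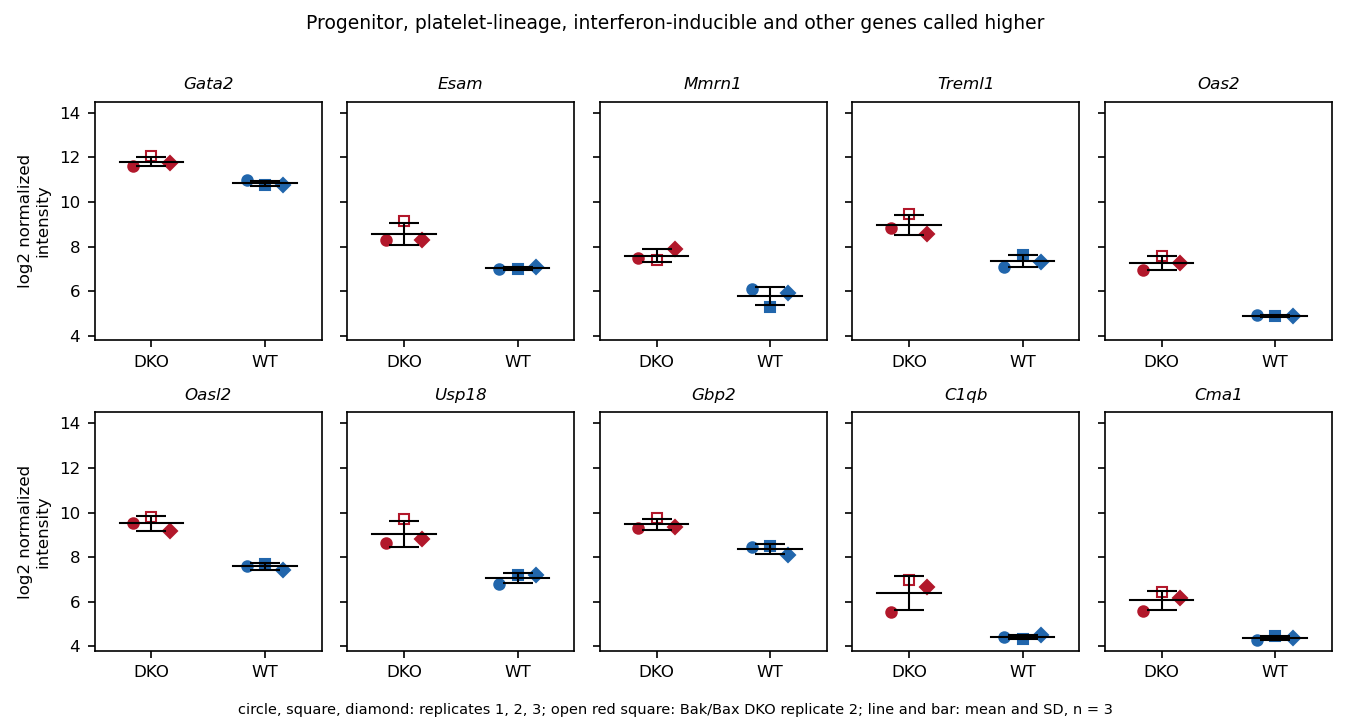
Log2 normalized intensity (y axis) of 10 genes called higher in Bak/Bax DKO cells, on each Bak/Bax DKO array (left) and each WT array of experiment 2 (right), with the mean and SD of 3 arrays. The groups do not overlap in any panel, and Bak/Bax DKO replicate 2 (open square) is the highest array for 9 of the 10 genes, all but Mmrn1.

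Interferon-stimulated genes were the list with most calls. These genes are switched on when secreted interferon activates the factor ISGF3, which binds the interferon-stimulated response element in their promoters. Of 58 measured members, 26 rose and none fell, and 28 rose and none fell without Bak/Bax DKO replicate 2. The median log2 change was 0.82, or 0.71 without that array, and 53 of the 58 lay above 0 in each case. Oas2, an enzyme that makes the activator of an RNA-degrading nuclease, read 6.97, 7.59 and 7.27 in Bak/Bax DKO cells, against 4.94, 4.86 and 4.87 in WT cells. The log2 change was 2.39 ± 0.25 (SE, limma adjusted p = 8.70e-04), and Oas2 was above background on 1 WT array. Usp18, which removes Isg15 from proteins and damps the receptor, read 8.63, 9.71 and 8.80, against 6.81, 7.18 and 7.21 in WT cells, a change of 1.98 ± 0.26 (SE, limma adjusted p = 0.00441). Oasl2 rose by 1.93, Oas1g by 1.91, the ISGF3 subunit Irf9 (Isgf3g in the files) by 0.97, and Epsti1 by 1.02. A second probe of Isgf3g had a change of 0.48 and one of Epsti1 0.42.

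The calls on Oas2, Usp18, Oasl2, Oas1g, Isgf3g and Epsti1 held whichever array was dropped. Ifit3, an RNA-sensing adaptor, rose by 2.09 with Bak/Bax DKO values of 6.46, 7.99 and 7.23 and WT values of 4.99, 5.33 and 5.11, and was not called without WT replicate 1, 2 or 3 (limma adjusted p up to 0.0718). Isg15, the ubiquitin-like modifier itself, read 8.04, 9.80 and 8.53 in Bak/Bax DKO cells and 6.42, 7.17 and 7.03 in WT cells, a change of 1.91 ± 0.38 (SE, limma adjusted p = 0.0261). It too was not called without WT replicate 1, 2 or 3 (limma adjusted p up to 0.0942). On each of these genes Bak/Bax DKO replicate 2 was the highest array, and without it the changes were 1.70 for Ifit3 and 1.41 for Isg15.

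Promoters of 3 of these genes are shown because they hold the core of the response element, searched as a pair of GAAA half-sites with any 2 bases between them on either strand (TTTC half-sites on the other one). The 160 bases before the annotated start are given 5′ to 3′ on the gene's strand, from RefSeq on GRCm38.p6, with the core in capitals, for Oas1g (chr5:120887614-120887773, minus strand), Ifit3 (chr19:34583369-34583528, plus strand) and Isg15 (chr4:156200819-156200978, minus strand).
Oas1g: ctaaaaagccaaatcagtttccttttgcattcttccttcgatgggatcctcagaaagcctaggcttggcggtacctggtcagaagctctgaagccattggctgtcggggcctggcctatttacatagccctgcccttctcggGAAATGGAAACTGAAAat
Ifit3: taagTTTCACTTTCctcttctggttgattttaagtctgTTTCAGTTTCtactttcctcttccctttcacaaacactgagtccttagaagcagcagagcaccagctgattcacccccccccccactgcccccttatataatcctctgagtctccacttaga
Isg15: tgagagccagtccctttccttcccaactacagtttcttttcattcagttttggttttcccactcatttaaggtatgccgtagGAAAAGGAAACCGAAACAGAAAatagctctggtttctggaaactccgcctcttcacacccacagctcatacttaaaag
In Oas1g 2 overlapping cores began 18 and 12 bases before the start. Ifit3 held 2 separate cores on the other strand, and Isg15 held 3 that overlap, the first 78 bases before the start. Among all 32851 RefSeq promoter windows, which run from 250 bases before to 50 after a start, 1131 (3.44%) held the core. Of the 26 genes called higher, 18 had a promoter in that table and 9 of those held the core. Of the 32 members not called, 24 had one and 7 held it. With that many members unmatched, a comparison of these counts is void. A match of these letters is a description and no measure of binding.

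Some genes that interferon gamma also induces rose as well. In the list of inducible GTPases and class I histocompatibility genes, 7 of 25 measured members rose and none fell, and 10 rose without Bak/Bax DKO replicate 2. The share called higher over all genes tested was 1.89% with all arrays and 2.58% without that array. Gbp2, a guanylate-binding GTPase that attacks pathogen vacuoles, read 9.32, 9.76 and 9.35 in Bak/Bax DKO cells, against 8.47, 8.49 and 8.11 in WT cells, a log2 change of 1.12 ± 0.18 (SE, limma adjusted p = 0.00853). H2-Q7, a non-classical class I gene, rose by 1.22, and both calls held whichever array was dropped. The probe of H2-Q7 lies 8.42 Mb from that of Bak1, and near-identical class I genes may share its signal. Another of its probes had a change of -1.27, or 0.86 without Bak/Bax DKO replicate 2. H2-Q8, also called higher with its probe 8.37 Mb from that of Bak1, was not called without WT replicate 1 or 3. Igtp and Iigp2, immunity-related GTPases, rose by 1.09 and 1.14, and both calls were lost without WT replicate 3 (limma adjusted p = 0.122 and 0.0844) or WT replicate 1. Of 31 nucleic acid sensing and interferon signalling genes, 2 rose, or 3 without Bak/Bax DKO replicate 2. The 2 were Cish, a suppressor of cytokine signalling, which rose by 1.43, and its relative Socs3, by 1.18, which was not called without WT replicate 1, 2 or 3 (limma adjusted p up to 0.0994).

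**Figure D4:**
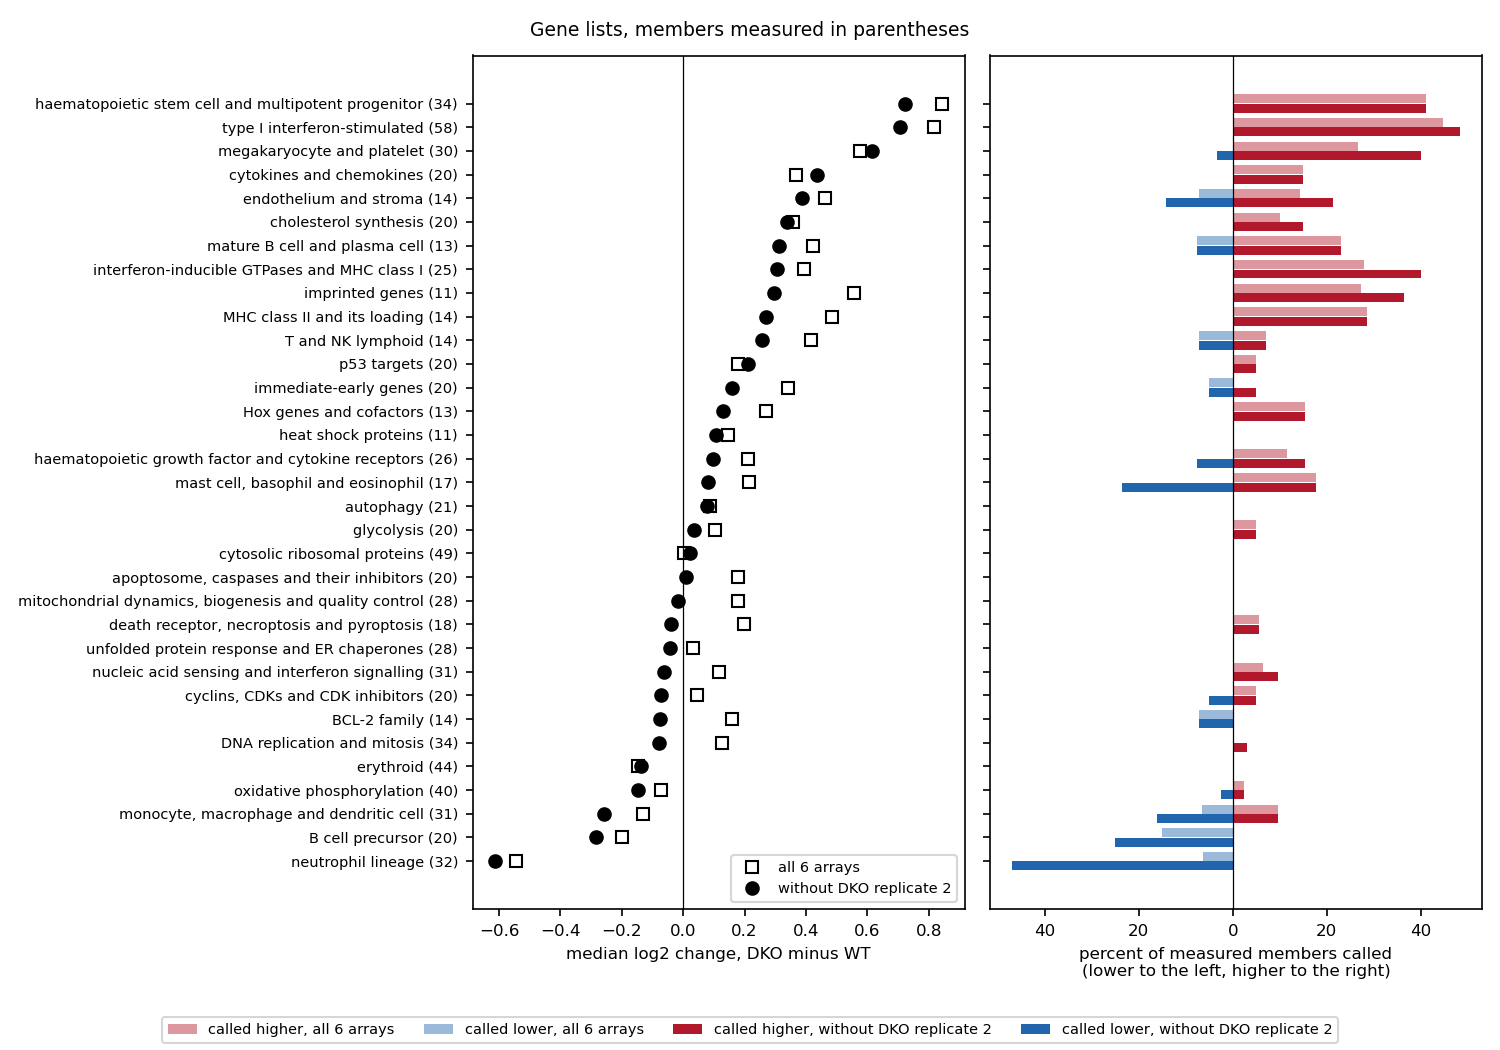
Median log2 change of Bak/Bax DKO over WT for the gene lists with at least 10 measured members (left), and the percent of members called lower (blue, to the left) or higher (red, to the right) (right), with all 6 arrays and without Bak/Bax DKO replicate 2. The stem cell and interferon-stimulated lists have the highest medians, 0.84 and 0.82 with all arrays, and the neutrophil list the lowest, -0.54.

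Neutrophil genes were lower, and the number called depended on the outlying array. Of 32 measured members, 2 fell with all arrays and 15 without Bak/Bax DKO replicate 2, none rose in either, and the median log2 change was -0.54 and -0.61. Fcnb, a secreted lectin of granulocyte precursors, read 6.71, 7.30 and 7.24 in Bak/Bax DKO cells, against 8.74, 9.28 and 9.36 in WT cells. It fell by 2.04 (limma adjusted p = 0.00111), a call that held whichever array was dropped. Camp, the cathelicidin antimicrobial peptide of secondary granules, read 9.24, 11.27 and 10.33, against 11.72, 12.16 and 12.03 in WT cells. All Bak/Bax DKO arrays were below all WT arrays, the change was -1.69 with all arrays (limma adjusted p = 0.0976) and -2.19 without Bak/Bax DKO replicate 2 (limma adjusted p = 0.00480). Ngp, Chi3l4, Lcn2 and Chi3l3, granule and chitinase-like proteins of the same stage, had changes of -2.04, -2.04, -1.81 and -1.69 without that array. They were among the largest falls called only without it. Mpo, myeloperoxidase of primary granules, had a change of -0.15 (limma adjusted p = 0.494). Elane, neutrophil elastase (Ela2 in the files), read 14.04, 4.24 and 13.89 in Bak/Bax DKO cells, against 13.54, 13.85 and 13.71 in WT cells, so that it was among the bright probes without signal on Bak/Bax DKO replicate 2.

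Macrophage and mast cell genes moved in both directions. C1qb, a chain of the complement component that macrophages secrete, read 5.54, 6.99 and 6.67 in Bak/Bax DKO cells and was not well above background on any WT array, at least 2.85-fold higher in Bak/Bax DKO cells (limma adjusted p = 0.00836). C1qc was at least 1.77-fold higher (limma adjusted p = 0.0609 without WT replicate 3). The receptor gene Axl, whose product lets phagocytes take up dying cells, rose by 1.44 (limma adjusted p = 0.100 without WT replicate 2), also not called without WT replicate 1 or 3 or Bak/Bax DKO replicate 3. Klf4, a monocyte transcription factor, fell by 1.33 and Ly86, a partner of a Toll-like receptor relative, by 1.11, and neither was called without WT replicate 2 or 3 (limma adjusted p up to 0.0557 and 0.0690). With all arrays 3 of 31 members of the list of monocytes, macrophages and dendritic cells rose and 2 fell, while without Bak/Bax DKO replicate 2 3 rose and 5 fell. The 3 falls added were F10, a coagulation factor gene, Tyrobp, a signalling adaptor of myeloid receptors, and Lgals3, a galectin of macrophages, with changes of -0.75, -0.74 and -1.21 without Bak/Bax DKO replicate 2. The summed linear level of the defining markers Csf1r, Emr1, C1qa and Cd68 was 457 to 883 on the Bak/Bax DKO arrays and 552 to 675 on the WT arrays, and their part in these results was not tested. Of 17 mast cell, basophil and eosinophil genes 3 rose and none fell, Gata2 among them, while without Bak/Bax DKO replicate 2 3 rose and 4 fell. Cma1, mast cell chymase, was at least 2.27-fold higher and called whichever array was dropped, while Cpa3, carboxypeptidase A of mast cell progenitors, rose by 0.90 (limma adjusted p = 0.142 without WT replicate 3, and not called without WT replicate 2). The 4 falls were of eosinophil granule genes. Epx, eosinophil peroxidase, had a change of -0.97 with all arrays (limma adjusted p = 0.167) and of -1.33 without Bak/Bax DKO replicate 2 (limma adjusted p = 0.0102). Prg2, Prg3 and Ear2 had changes of -0.95, -1.01 and -1.09 without that array. The summed level of the mast cell and basophil markers Cpa3, Mcpt8 and Fcer1a was 4272 to 6618 on the Bak/Bax DKO arrays and 2468 to 3202 on the WT arrays. Most of this sum came from Cpa3, called above, which read 11.84 to 12.47 on the Bak/Bax DKO arrays. Fcer1a read 8.49 to 9.42 there, against 7.31 to 7.94 on the WT arrays. Mcpt8 did not separate the groups, with its lowest value, 7.72, and its highest, 8.01, both on WT arrays. The part of these markers in the results was not tested.

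**Figure D5:**
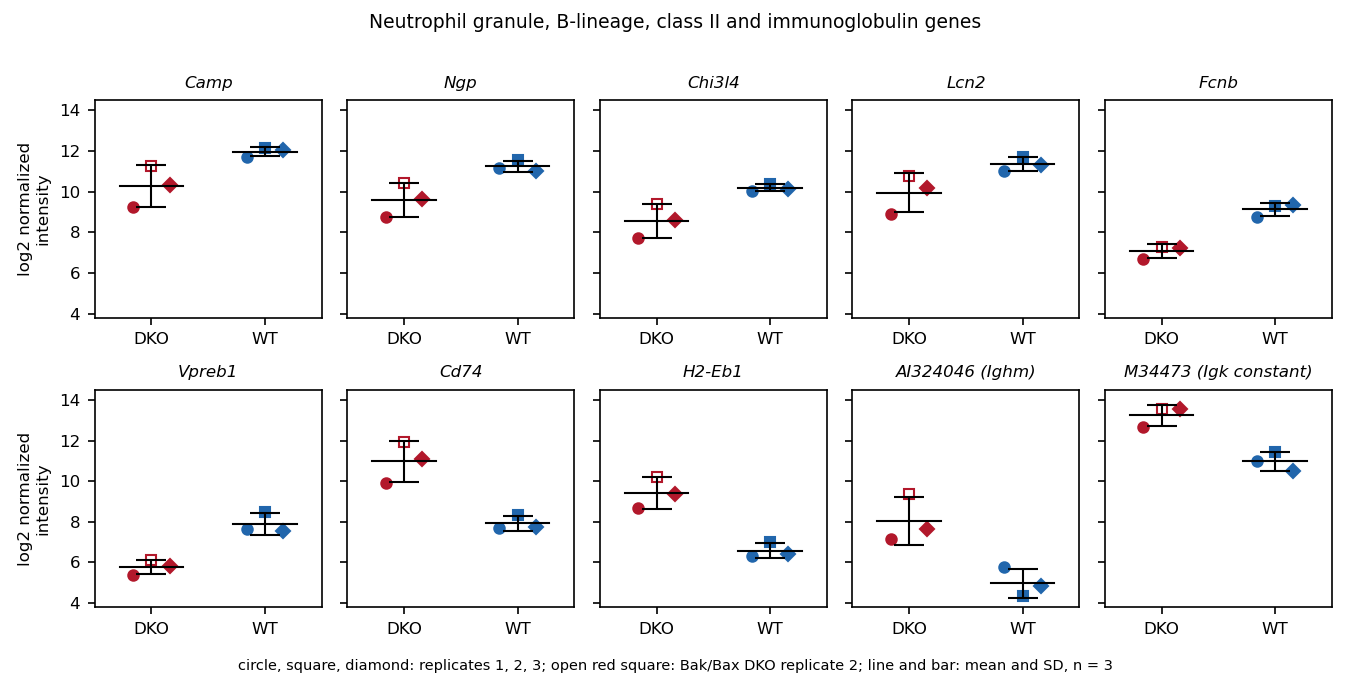
Log2 normalized intensity (y axis) of 10 lineage genes on each Bak/Bax DKO array (left) and each WT array of experiment 2 (right), with the mean and SD of 3 arrays. The 4 granule and chitinase-like genes, Fcnb and Vpreb1 are lower on every Bak/Bax DKO array than on any WT array, and the class II and immunoglobulin genes are higher.

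Genes of the B lineage split between precursor and later products. Vpreb1 and Igll1 (AK137552 in the files) encode the surrogate light chain, which pairs with the heavy chain before a light chain is made. Vpreb1 read 5.40, 6.12 and 5.81 in Bak/Bax DKO cells, against 7.64, 8.49 and 7.53 in WT cells, and fell by 2.11 (limma adjusted p = 0.00316). AK137552 fell by 2.07 (limma adjusted p = 0.00562), and both calls held whichever array was dropped. Of 20 measured precursor genes 3 fell, or 5 without Bak/Bax DKO replicate 2, and none rose. The third was Cd79a, a signalling chain of the B cell receptor, at least 1.34-fold lower (limma adjusted p = 0.114 without WT replicate 2, and not called without WT replicate 1 or Bak/Bax DKO replicate 1 either).

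Immunoglobulin and class II transcripts were higher. The immunoglobulin kappa constant region probe (M34473) read 12.65, 13.53 and 13.57 in Bak/Bax DKO cells, against 10.98, 11.44 and 10.52 in WT cells, a log2 change of 2.27 ± 0.32 (SE, limma adjusted p = 0.00535). A heavy chain mu probe (AI324046) read 7.13, 9.35 and 7.64, against 5.76, 4.35 and 4.83 in WT cells, a change of 3.06 that was not called without WT replicate 2 or 3 (limma adjusted p up to 0.0712). Cd74, the invariant chain that escorts class II molecules, read 9.90, 11.93 and 11.08, against 7.69, 8.34 and 7.73 in WT cells, a change of 3.05 ± 0.42 (SE, limma adjusted p = 0.00523). H2-Eb1, a class II beta chain gene 7.30 Mb from Bak1, rose by 2.83, and the calls on M34473, Cd74 and H2-Eb1 held whichever array was dropped. H2-Aa and H2-Ab1, 7.26 and 7.25 Mb from Bak1, rose by 1.71 and 1.54. Both calls were lost without WT replicate 3 (limma adjusted p = 0.0862 and 0.122) or WT replicate 1. That on H2-Ab1 was also lost without WT replicate 2 or Bak/Bax DKO replicate 3. In all 4 of 14 measured class II genes rose and none fell, and all of the risen ones but Cd74 lie within 10 Mb of Bak1. Ltb, a membrane-anchored lymphotoxin gene 8.18 Mb from Bak1, rose by 2.26. Siglecg, an inhibitory receptor gene of B cells 2.04 Mb from Bax, fell by 1.67. In the list of mature B and plasma cells, AI324046, Cd74 and Ltb were the 3 rises and Siglecg the 1 fall among 13 measured members.

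The defining markers of mature B cells lay near background. Ms4a1, Cd22 and Fcer2a were below background on all 6 arrays, and Cr2 was above it on 1 Bak/Bax DKO array. The summed linear level of that marker list was 108 to 128 on the Bak/Bax DKO arrays and 112 to 130 on the WT arrays. Of the plasma cell markers, Igj and Prdm1 were below background on all 6 arrays, Sdc1 was above it on 1 Bak/Bax DKO array and Tnfrsf17 on 2. Their summed level was 91, 114 and 97 on the Bak/Bax DKO arrays and 89, 83 and 85 on the WT arrays. Every Bak/Bax DKO array was higher, but these are sums of probes at or near background. On Bak/Bax DKO replicate 1, Sdc1, Igj, Tnfrsf17 and Prdm1 read 4.65, 4.57, 4.40 and 4.40. The part of these markers in the immunoglobulin result was not tested. Itgax, a dendritic cell marker, was below background on all 6 arrays, and Siglech was above it on the 3 WT arrays alone. Zbtb46, another such marker, was above background on all 6 arrays. It read 6.91, 6.74 and 6.38 in Bak/Bax DKO cells, against 6.76, 6.93 and 7.07 in WT cells.

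T cell and natural killer genes went both ways. Of 14 measured members of that list 1 rose and 1 fell, beside 1.89% and 0.517% of all genes tested. Lat, an adaptor of the T cell receptor, rose by 0.98 (limma adjusted p = 0.133 without WT replicate 3, and not called without WT replicate 1 or 2). Nkg7, a cytotoxic granule gene 2.02 Mb from Bax, fell by 1.45 (limma adjusted p = 0.102 without WT replicate 3, and not called without WT replicate 1 or 2 or Bak/Bax DKO replicate 3). Among the defining markers, Cd3e, Cd247 and Ncr1 were below background throughout, and Cd3g was above it on 2 Bak/Bax DKO arrays and no WT array. Klrd1, a natural killer receptor chain, read 6.01, 7.73 and 6.74 in Bak/Bax DKO cells, against 5.79, 5.93 and 5.23 in WT cells, without passing (limma adjusted p = 0.129). Lck, a kinase of T cell receptor signalling, read 7.27, 7.79 and 7.42, against 6.98, 7.07 and 7.22 in WT cells (limma adjusted p = 0.259). Both were higher on every Bak/Bax DKO array than on any WT array. The summed T cell markers stood at 223 to 336 on the Bak/Bax DKO arrays and 198 to 216 on the WT arrays, and the natural killer markers, Nkg7 included, at 1239 to 3272 on the Bak/Bax DKO arrays and 4304 to 5324 on the WT arrays.

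The rest of the cell death machinery held few calls, where 1.89% of all genes tested were called higher and 0.517% lower. Unadjusted limma p-values under 0.05 were found for 4 of 14 BCL-2 family genes and 6 of 20 p53 targets. They were found for 2 of 18 genes of death receptors, necroptosis and pyroptosis, and for 1901 of all 11026 genes. Without Bak/Bax DKO replicate 2 the counts in these 3 lists were 4, 3 and 4. Of 14 measured BCL-2 family genes other than the deleted pair, 1 was called: Bcl2l12, 0.47 Mb from Bax, fell by 1.10, was not called without WT replicate 1 or 2 (limma adjusted p up to 0.0566), and has a second probe with a change of 0.21. Bbc3, the BH3-only protein PUMA, read 8.26, 9.17 and 7.94 in Bak/Bax DKO cells, against 7.46, 7.68 and 7.52 in WT cells. The groups did not overlap, but the change of 0.90 ± 0.28 did not pass (SE, limma adjusted p = 0.134). Bcl2 had a change of 0.44, Bcl2l1 of 0.51, Mcl1 of 0.33 and Bcl2l11 (BIM) of -0.0042, none called (limma adjusted p of 0.215 and above). None of 20 apoptosome, caspase and inhibitor genes was called by limma, with or without Bak/Bax DKO replicate 2 (2 and 3 had an unadjusted p under 0.05). Casp9 read 9.20, 9.27 and 9.02, against 9.36, 8.99 and 9.13 in WT cells, and Apaf1 had a change of 0.29. Among 18 genes of death receptors, necroptosis and pyroptosis, Il1b alone rose, by 1.36 (limma adjusted p = 0.0804 without WT replicate 1, and not called without WT replicate 2 or 3). Among 20 targets of p53, Zmat3 alone rose, by 1.02 (limma adjusted p = 0.0923 without WT replicate 2, and not called without WT replicate 1 or 3), and Phlda3, another p53 target, had a change of 0.93 (limma adjusted p = 0.0958).

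Housekeeping, stress and erythroid lists held few calls. Beside them, 1.89% of all genes tested rose and 0.517% fell, or 2.58% and 1.98% without Bak/Bax DKO replicate 2. None was called of 28 genes for mitochondrial dynamics and quality control, 28 of the unfolded protein response, 11 heat shock protein genes, 21 autophagy genes, 44 erythroid genes and 49 cytosolic ribosomal protein genes, by limma with or without Bak/Bax DKO replicate 2. With all arrays, unadjusted p-values under 0.05 numbered 2, 4, 0, 1, 4 and 1 in these lists, and without Bak/Bax DKO replicate 2 1, 4, 0, 3, 11 and 2. Of the 44 erythroid genes, 18 lay above 0 with all arrays and 11 without that array. Rpl13a, a ribosomal gene outside that list, was called higher by 1.71, and was picked after its value was seen. Of 40 oxidative phosphorylation genes 1 rose, the Ndufb10 probe described above, and without Bak/Bax DKO replicate 2 1 fell as well. DNA replication and mitosis had no limma call among 34 (6 with an unadjusted p under 0.05) and 1 higher without Bak/Bax DKO replicate 2, with Mki67, a proliferation marker, at 0.40 (limma adjusted p = 0.191). In glycolysis 1 of 20 genes rose, Aldoc, a fructose-bisphosphate aldolase, by 0.96 (limma adjusted p up to 0.0839 without WT replicate 1, 2 or 3, and not called without any of them). Klf4 was the single call among 20 immediate-early genes, and Cdkn1c among 20 cyclins, cyclin-dependent kinases and their inhibitors. The first of these lists had 1 rise more and the second 1 fall more without Bak/Bax DKO replicate 2. In cholesterol synthesis 2 of 20 genes rose, or 3 without Bak/Bax DKO replicate 2. Cyp51 rose by 0.65 and Sqle by 0.69 (limma adjusted p up to 0.0961 without WT replicate 3 and up to 0.0994 without WT replicate 2). Cyp51 was also not called without WT replicate 2, and Sqle not without WT replicate 1 or 3 or Bak/Bax DKO replicate 3.

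Cytokine genes and their receptors held a few calls. The shares over all genes tested were 1.89% higher and 0.517% lower, or 2.58% and 1.98% without Bak/Bax DKO replicate 2. Of 20 measured cytokine and chemokine genes 3 rose, Ltb, Il1b and Ccl4, a chemokine that draws monocytes and lymphocytes. Ccl4 rose by 1.29 and was not called without WT replicate 1, 2 or 3 (limma adjusted p up to 0.172). Of 26 receptor genes 3 rose, among them Kit and Il27ra, a subunit of the interleukin-27 receptor, which rose by 1.12 and was likewise not called without WT replicate 1, 2 or 3 (limma adjusted p up to 0.159). Among the receptor genes 4 rose and 2 fell without Bak/Bax DKO replicate 2. The falls were Csf2ra and Il7r, which encode chains of the GM-CSF and interleukin-7 receptors, with changes of -0.60 and -0.61. In the list of Hox genes and cofactors 2 of 13 genes were called, 1 of them Meis1. Of 14 endothelial and stromal genes 2 rose, Vwf and Col4a1, a basement membrane collagen, by 1.15, and 1 fell, Fn1 (fibronectin), by 0.98, while without Bak/Bax DKO replicate 2 3 rose and 2 fell. Col4a1 was not called without WT replicate 1 or 3 (limma adjusted p up to 0.0603), Fn1 not without any WT array or Bak/Bax DKO replicate 1 (limma adjusted p up to 0.0976). The endothelial marker Emcn was above background on all 6 arrays, while Cdh5 and Kdr were below it on most. The summed level of these 3 was 150 to 263 on the Bak/Bax DKO arrays and 114 to 130 on the WT arrays. Of the stromal markers, Cxcl12 and Lepr were above background on all 6 arrays, and Col1a1 and Col3a1 on none. Their summed level went the other way, 127 to 199 on the Bak/Bax DKO arrays and 179 to 262 on the WT arrays. The part of either marker set in these results was not tested.

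Several large changes fell outside the lists or in small ones. Snrpn, an imprinted gene for a splicing protein on chromosome 7, read 7.72, 9.12 and 7.99 in Bak/Bax DKO cells and 4.34, 4.48 and 4.30 in WT cells, where it was not well above background. It was at least 10.5-fold higher (limma adjusted p = 7.16e-05), and on the 6 arrays of experiment 1 it read 4.28 to 4.39. Ndn (necdin), an imprinted growth suppressor gene also listed with the stem cell genes, read 7.41, 8.05 and 7.79, against 5.10, 5.28 and 5.35 in WT cells, a change of 2.51 ± 0.19 (SE, limma adjusted p = 1.28e-04). Their probes lie 14.41 and 16.78 Mb from that of Bax. Of 11 measured imprinted genes 3 rose, Cdkn1c being the third, and none fell, with 4 rises without Bak/Bax DKO replicate 2. The AK205379 probe, assigned to Rps2 and open to signal from its near-identical copies, rose by 4.14, with 13.39, 13.71 and 13.47 in Bak/Bax DKO cells, against 9.07, 9.42 and 9.67 in WT cells. The LPR probe, annotated in the files to a transcript carrying an ETn retrotransposon insertion, was at least 16.1-fold lower, with 4.55, 4.36 and 4.62 against 9.33, 8.84 and 8.59 in WT cells. Ehd3, a membrane trafficking gene, rose by 2.07. Without Bak/Bax DKO replicate 2, Erdr1 had a change of 7.40 (limma adjusted p = 5.92e-05) but differed among the WT arrays, at 7.78, 5.02 and 4.43, and an immunoglobulin gamma heavy chain probe (Ighg) one of 6.15 (limma adjusted p = 0.00103).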

How the data were processed

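Biotin-labelled cRNA from at most 250 ng of RNA was hybridized to Illumina Mouse WG6V2 beadchips, per the labels' protocols, and the 6 arrays shared 1 beadchip. GenomeStudio and limma are named in the submitters' processing notes. The authors deposited log2 normalized values, which a neqc run (offset 16) on the deposited intensity values matched within 0.0197, and a second deposited copy was identical. The deposited detection score rises with intensity and was read as 1 minus the detection p-value. Of 45281 probes, 17441 with a symbol passed 0.95 on at least 3 of 6 arrays, and the probe with the highest mean stood for each symbol.

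Group means over all 12 arrays were fitted with limma 3.58.1 in R 4.3.3 (8 residual degrees of freedom, 7 without Bak/Bax DKO replicate 2), with eBayes and Benjamini-Hochberg adjustment over 11026 genes, and called at 0.05. On simulated data for this comparison 53 of 100 genes changed by 1 log2 unit and 90 of 100 changed by 2 were recovered. The simulated noise was independent between arrays and held no outlying array like Bak/Bax DKO replicate 2, so these rates do not cover that case. A probe below background on all arrays of a group has only a bound, set from the lowest signal above background. The number of arrays limits the precision, and intensity gives no count-based interval. Named genes were Bak1 and Bax, the 15 largest rises and falls, up to 6 called members per list, called genes within 5 Mb of either, and the 5 largest rises and falls called only without Bak/Bax DKO replicate 2. A few others (Isg15, Oas1g, Cd34, Procr, Mpo, Elane, Epx, F13a1, Casp9, Apaf1, Bcl2l1, Mcl1, Bcl2l11, Rpl13a, F10, Tyrobp, Lgals3, Prg2, Prg3, Ear2, Csf2ra, Il7r, Klrd1, Lck, Cd3g) were picked after their values were seen. Some genes that the rule takes are not reported here. The members and lists were chosen with earlier results of these data known. Current symbols come from RefSeq tables of GRCm38.p6.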

Additional observations from a re-analysis of the deposited data

How the results depend on the processing

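The main count was 265 calls (208 higher, 57 lower). Leaving out 1 array gave 95 to 502 calls, 67 to 358 higher and 25 to 218 lower. The 6 arrays of experiment 2 alone gave 17 (7 higher, 10 lower), and the 5 without Bak/Bax DKO replicate 2, an alternative added after seeing the data, gave 346, with 154 lower. Array weights gave 642 (354 higher, 288 lower), normalization over 11 arrays 499 with 216 lower, and probes chosen without Bak/Bax DKO replicate 2 also 499, with 218 lower. Other settings stayed between 213 and 301. Calls higher made up 78.5% with all arrays and 56.6% without Bak/Bax DKO replicate 2. With replicate number as a replicate block 137 were called (104 higher, 33 lower). Replicate numbers showed no clear pairing, since deviations of same-numbered samples correlated at 0.103, 0.0628 and 0.0495, although each sample correlated best with its own number. The log2 change of Gfer, -1.08 with all arrays, was 1.26 in the 4 settings without Bak/Bax DKO replicate 2 and 1.11 with array weights, and ranged from -2.26 to 1.26 with 1 array left out. That of Itga2b, 0.22 with all arrays, ranged from -0.34 to 1.17, with -0.17 without Bak/Bax DKO replicate 1, and the mean over probes turned Ndufb10 to -1.57 and Hps5 to -0.57. The cause was not tested. Signal over background limits genes such as Bak1 to bounds.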
